A study of Mus musculus with 12 samples.

Results

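The comparison set bone marrow-derived macrophages that had met lipopolysaccharide (LPS) on both occasions of the experiment against macrophages that had never met it, and so measured the net change left by both exposures. LPS coats the surface of Gram-negative bacteria. Of the 12 arrays of the series it used 6, the 3 whose titles give LPS both before and after the rest and the 3 whose titles give it at neither step, paired by the replicate letter A, B or C. The cells came from C57Bl/6 bone marrow and were differentiated with M-CSF, the macrophage colony-stimulating factor, and each culture is a biological replicate per the labels. Restimulated cultures received 100 ng/ml LPS for 18 h, fresh medium, 2 h of rest and then LPS at 100 ng/ml again. Untreated cultures received no LPS at either step. The other cultures, pretreated (LPS before the rest only) and LPS once (LPS after the rest only), share the estimate of the spread in the fit and are set beside the named genes. The sources used here do not give how long the last stimulation lasted or whether cultures of the same letter share a mouse. All 34945 probe sets with 1 gene symbol were tested, and they stand for 18193 genes.

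Macrophages sense LPS through the receptor Tlr4, whose adaptor proteins switch on NF-kappaB, MAP kinases and interferon regulatory factors. Cells that have met LPS respond to a second dose with less of many inflammatory cytokines, a state called LPS or endotoxin tolerance, while other genes stay inducible. Set against cells that never met LPS, restimulated cells show the first and the second dose together.

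RNA was measured on Affymetrix arrays, 1 per culture, and values are linear intensity units as deposited, without a count of molecules. The restimulated replicate C array was dim. Its mean was 246.7 units, against 310.04 to 316.98 on the other 11 arrays. Its median of 31.41 lay within the range of the other arrays, 29.72 to 31.65. Over 10456 probe sets of mid-range intensity, between 100 and 1000 units, it differed from restimulated A and B by a median log2 of -0.56, and 92.3% of them were lower. For 45 control probe sets this median was -0.20. Restimulated C is kept below, and a value in square brackets after a log2 change is the same change fitted without it. The 8 macrophage markers, among them Csf1r, Adgre1 and Cd68, were all measured at 100 units or more on average, and their sum, to which Lyz2 near the top of the arrays gave the most, was 49518 to 58657 units in restimulated cultures and 54319 to 55633 in untreated cultures. Members of it moved apart without overlap of the groups: Cd68 changed by -0.67 ± 0.09 [-0.55] and Mertk by -2.10 ± 0.37 [-1.62], and Itgam by 0.78 ± 0.11 [0.87]. Smaller shifts without overlap were those of Csf1r, 11248 to 11647 units in restimulated and 11889 to 12139 in untreated cultures, and Adgre1, 10003 to 11335 and 8019.6 to 9187.

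Limma called 293 genes higher and 808 lower in restimulated than in untreated macrophages, 1.61% and 4.44% of all genes tested. Calls required a 2-fold change or more together with an adjusted p under 0.05 (Benjamini-Hochberg, all tested probe sets). At an unadjusted p under 0.05 by limma, whatever the size of the change, 2595 of the 18193 genes were higher and 4197 lower. Counts of list members at that threshold, given below, are to be read beside these. Among probe sets 469 were called higher and 1272 lower, 1.34% and 3.64%. Of the called genes 114 rose and 125 fell at least 4-fold, and 52 rose and 25 fell at least 8-fold. The groups of arrays did not overlap for 282 of the higher and 761 of the lower calls. Over all 18193 genes, 3193 had every restimulated value above every untreated one, and 4037 had every one below. A called gene is likely to have groups that lie apart, so these counts are no separate support for the calls.

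Without restimulated C 292 genes were called higher, 1.61%, and 511 lower, 2.81%. Of the original calls 257 higher and 476 lower genes were called both ways. Of the 332 lower calls lost, 261 were under 2-fold without that array. The median log2 change of the 808 lower genes was -1.36 with it and -1.20 without it, and that of the 293 higher genes was 1.68 and 1.80. The untreated arrays also moved the counts, to 202 higher and 500 lower without untreated B and to 189 and 433 without untreated C.

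**Figure D1:**
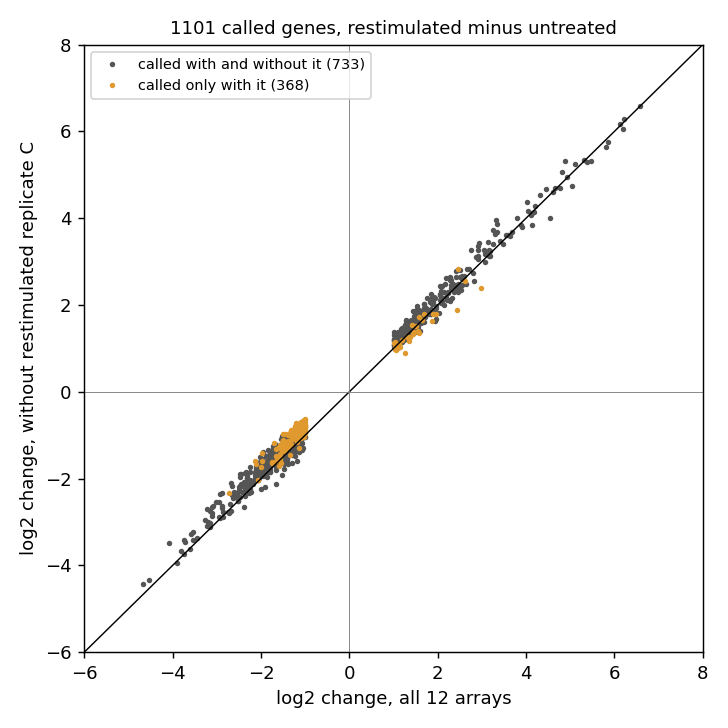
Log2 change (restimulated minus untreated) of the 1101 called genes with all 12 arrays, on the x axis, against the same change without restimulated replicate C, on the y axis, with the line of equality. Grey points are the 733 genes called both ways and orange points the 368 called only with that array, most of which lie near the 2-fold limit on the side of the decreases.

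Of the 15 largest increases 5 were acute phase and antimicrobial genes, many of whose products are secreted and act against bacteria or bind iron, haemoglobin or proteases. Of 21 measured genes of this list 10 rose and 0 fell, 47.6% and 0% beside 1.61% and 4.44% over all genes. The median log2 change was 1.27 beside 0.0049 over all genes, and 8 rose without restimulated C. At an unadjusted p under 0.05 limma had 2 lower genes in this list, and leaving out untreated A or restimulated A gave 1 and 2 lower. Cfb, complement factor B of the alternative pathway, is in the complement list and changed most of all genes. It measured 3648, 6113 and 3740.4 units in restimulated cultures A, B and C, against 24.6, 26.4 and 39.1 in untreated ones. Every restimulated value was far above every untreated one, so that the log2 change came to 6.59 ± 0.39 (SE, n = 3 in each group; adjusted p = 0.000325 by limma), and 6.58 without restimulated C. In the complement list 2 of 15 genes rose, 13.3% beside 1.61% over all genes. The other was C1ra, the mouse gene of the C1r protease, at 2.15 ± 0.27 [2.30].

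Saa3, an acute phase serum amyloid A gene, measured 14020.5, 14571 and 12933 units in restimulated cultures, against 154, 186 and 214 in untreated ones, all in the order A, B and C. These restimulated values lie near the top of the arrays, whose highest values were 15230 to 16569, so the change of 6.12 ± 0.12 [6.17] may be understated. The adjusted p of this change was 1.29e-06 by limma. Lcn2, which binds bacterial siderophores, measured 4226, 11346 and 8238 units in restimulated and 28.6, 203 and 85.1 in untreated cultures. Replicate A was lowest in both groups, and the paired log2 change was 6.21 ± 0.41 [6.06]. Slpi, an inhibitor of serine proteases, measured 2044, 11599 and 8351 and 157, 223 and 123 units, in the same order of groups, a change of 5.03 ± 0.49 [4.74]. Hp, haptoglobin, rose by 5.47 ± 0.49 [5.32] and Cp, the copper-carrying ferroxidase ceruloplasmin, by 3.80 ± 0.19 [4.01]. Acod1, the enzyme that makes itaconate, measured 11179, 10942 and 10051 units in restimulated and 123, 176 and 97.3 in untreated cultures and rose by 6.22 ± 0.77 [6.28]. S100a8 and Camp, which encode antimicrobial proteins abundant in neutrophils, rose by 1.89 ± 0.48 [1.79] and 1.27 ± 0.25 but lost their calls without restimulated C (adjusted p = 0.0946 for S100a8, and a change of 0.90 for Camp), and without some of the other arrays. Other genes of the neutrophil list went both ways, and none of them was called. S100a9, the partner of S100a8, was at -0.90 ± 0.24 [-0.73] (adjusted p = 0.043, under the 2-fold limit). Ltf was at -0.89 ± 0.49 [-1.03] (adjusted p = 0.241) and Ngp at -1.42 ± 0.42 [-1.39] (adjusted p = 0.0594). The rest had log2 changes of 0.79 (Mmp8), 0.39 (Cxcr2), 0.22 (Ctsg), 0.11 (Elane), -0.09 (Mpo) and -0.12 (Prtn3). All these uncalled genes are named after their values were seen.

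Several of these genes were also high in the pretreated cultures, which were given no second dose. Pretreated cultures had 13874, 14367 and 13756 units of Saa3, 3577, 6214 and 4469 of Cfb and 4505, 10888 and 9319 of Lcn2. The restimulated minus pretreated log2 changes were -0.02 [0.03], -0.08 [-0.09] and -0.07 [-0.22], with adjusted p-values of 0.954, 0.933 and 0.948. Saa3 was near the top of the arrays in both groups, where a difference may not show. Slpi and Hp had changes of 0.06 [-0.22] and -0.10 [-0.25] in this comparison. Acod1 stood at 319, 6509 and 2317 units in pretreated cultures, where the letters differed and replicate A was dim.

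**Figure D2:**
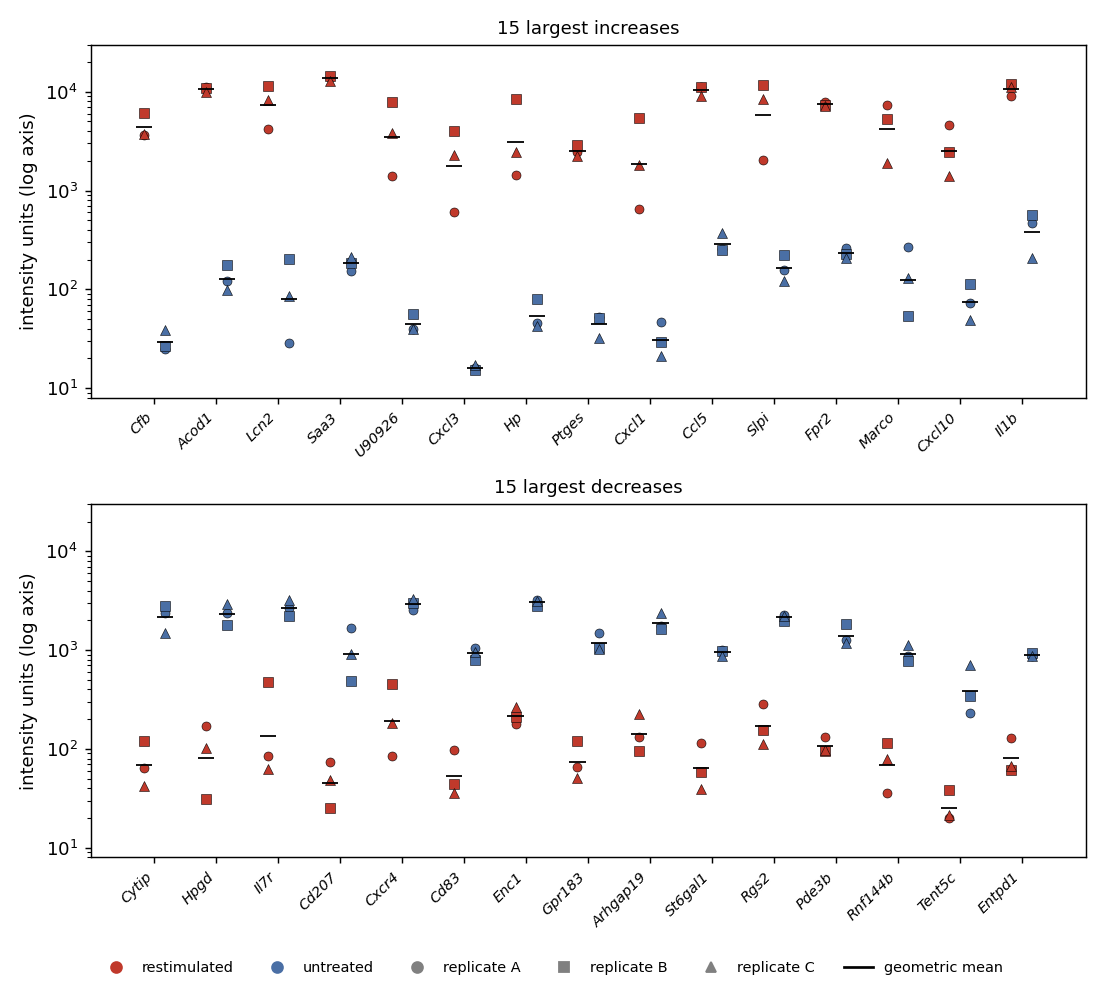
Intensity units (log axis) of the 15 largest increases and the 15 largest decreases in each array, restimulated in red at the left and untreated in blue at the right of each gene, with a symbol per replicate letter and a bar at the geometric mean. The groups do not overlap for any of the 30 genes, as the rule that chose them requires, and the letters of a group lie apart for some of them, among them Cxcl3, Lcn2 and Il7r.

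Several chemokines that draw neutrophils and T cells rose. Of 22 measured chemokines 10 rose and 1 fell, with a median log2 change of 1.37, and the counts were the same without restimulated C. The shares were 45.45% and 4.55%, beside 1.61% and 4.44% over all genes, so the lower share was near that of all genes. The higher count was 5 without untreated B and 6 without untreated C. The gene that fell was Ccl6, a chemokine of monocytes and macrophages, with a change of -1.58 ± 0.43 [-1.23]. It is named here after its values were seen, and it was not called without restimulated C (adjusted p = 0.129), untreated B, untreated C or any 1 of 5 other arrays. Without restimulated C the lower chemokine was Cxcl12, the ligand of Cxcr4, at -2.09, which is named for the same reason. Cxcl1, a ligand of the neutrophil receptor Cxcr2, measured 654, 5419.7 and 1817 units in restimulated and 46.3, 29.2 and 20.9 in untreated cultures. The lowest restimulated value, of replicate A, was still over all untreated values, and the log2 change was 5.32 ± 0.67 [5.34] (adjusted p = 0.00384). Its neighbour Cxcl3 measured 607, 4004 and 2279.9 units in restimulated cultures and 15.9, 15.3 and 17.2 in untreated ones, a change of 5.80 ± 1.00 [5.64]. This call rests on the untreated arrays B and C, without which the adjusted p was up to 0.0524. Cxcl10, an attractant of T cells made in response to interferons, measured 4648, 2460 and 1410.1 units in restimulated and 72.8, 113 and 48.8 in untreated cultures, a change of 4.81 ± 0.47 [5.07].

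Ccl5, which attracts T cells and monocytes, measured 11274, 11216 and 9134 units in restimulated cultures, against 256, 249.5 and 369.5 in untreated ones. The change was 5.12 ± 0.15 [5.25], and the groups lay far apart on all letters. Pretreated cultures, without the second dose, had 11494, 11218 and 10339 units and LPS once cultures 11407, 10751 and 10508. Ccl5 values of all groups that met LPS overlapped, and restimulated minus pretreated was -0.07 [0.07] ± 0.15. All these values are bright, and whether the arrays compress a difference at this level was not tested.

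The 250 bases before the start of the named genes were taken from RefSeq promoter sequences (build GRCm38.p6) for the 12 of the 15 largest increases that the table holds. Both strands were searched for the NF-kappaB consensus, a motif of 10 bases, and for the interferon-stimulated response element, which is GAAA repeated after any 2 bases. The first occurred in 3 of the 12 genes, Cxcl1, Cxcl3 and Cxcl10, beside 3.90% of all 32851 promoters, and the second in 2 of the 12, Saa3 and Cxcl10, beside 2.98%. Cxcl1 and Cxcl3 each hold a pair of NF-kappaB matches that overlap by all but 1 base. These sequences are shown because their genes are among the largest increases and hold a match. They are printed 5′ to 3′ on the gene's own strand with matches in capitals, for Cxcl1 at chr5:90890995-90891244 (+), Cxcl3 at chr5:90785851-90786100 (+), Cxcl10 at chr5:92348890-92349139 (-) and Saa3 at chr7:46715677-46715926 (-).
Cxcl1: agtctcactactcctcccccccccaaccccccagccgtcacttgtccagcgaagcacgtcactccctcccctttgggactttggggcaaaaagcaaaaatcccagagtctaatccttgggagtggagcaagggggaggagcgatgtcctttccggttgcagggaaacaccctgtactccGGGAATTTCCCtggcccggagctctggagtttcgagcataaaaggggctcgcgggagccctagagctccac
Cxcl3: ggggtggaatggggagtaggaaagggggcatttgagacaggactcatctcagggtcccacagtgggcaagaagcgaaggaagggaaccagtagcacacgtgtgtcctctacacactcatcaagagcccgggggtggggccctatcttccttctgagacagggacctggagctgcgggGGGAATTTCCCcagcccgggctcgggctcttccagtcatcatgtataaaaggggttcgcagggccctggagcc
Cxcl10: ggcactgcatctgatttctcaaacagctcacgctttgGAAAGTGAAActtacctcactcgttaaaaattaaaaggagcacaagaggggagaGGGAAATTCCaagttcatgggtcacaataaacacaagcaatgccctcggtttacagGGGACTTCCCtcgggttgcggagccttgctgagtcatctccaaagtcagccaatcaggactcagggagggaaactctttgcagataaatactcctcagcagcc
Saa3: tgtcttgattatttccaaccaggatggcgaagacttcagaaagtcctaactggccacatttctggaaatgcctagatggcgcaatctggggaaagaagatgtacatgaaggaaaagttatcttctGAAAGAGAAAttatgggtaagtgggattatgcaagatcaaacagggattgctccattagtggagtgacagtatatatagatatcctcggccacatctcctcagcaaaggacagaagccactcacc
In Cxcl10 the response element begins 213 bases before the start and the NF-kappaB matches 159 and 103 bases before it. In Saa3 the response element begins 125 bases before the start. A match describes these letters only and was not tested for binding.

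Inflammatory cytokines rose in part. Of 22 measured, 9 rose and 0 fell, 40.9% and 0% beside 1.61% and 4.44% over all genes. The median log2 change was 0.42, and 8 rose without restimulated C. None was called lower by limma (0 of 22), although 3 had an unadjusted p under 0.05 with a lower level and 1 was called without untreated C. Il1b, the pyrogenic cytokine matured by the inflammasome, measured 9085, 11977 and 11273 units in restimulated and 467, 564 and 205 in untreated cultures, a log2 change of 4.76 ± 0.68 [4.70]. Il6, which drives the acute phase response, measured 282, 1829.7 and 650.4 units in restimulated and 11.5, 11.3 and 14.2 in untreated cultures. Untreated cells were close to the floor of the arrays, restimulated B was highest, and the change was 4.66 ± 0.48 [4.69] (adjusted p = 0.002). Tnf measured 2241, 3719 and 2009.7 units in restimulated and 337, 283 and 394 in untreated cultures, a change of 2.88 ± 0.26 [3.11]. Il1a rose by 3.69 ± 0.59 [3.69] and Il12a, the p35 subunit of interleukin 12, by 2.92 ± 0.63 [3.06], although Il12a lost its call without untreated B or C (adjusted p up to 0.0942).

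Il10, Il12b and Nos2 were not called. Il10, which encodes an anti-inflammatory cytokine, measured 40.5, 24.3 and 20.9 units in restimulated and 53.4, 38.3 and 40.4 in untreated cultures, against 2206, 2545 and 2132 in cultures given LPS once. Restimulated and untreated values overlapped, and the log2 change of -0.45 ± 0.17 [-0.34] was not called (adjusted p = 0.115). Il12b, the p40 subunit shared by interleukins 12 and 23, measured 15.5, 31.5 and 10.7 units in restimulated and 10.2, 12.5 and 12.1 in untreated cultures, a change of 0.31 ± 0.34 [0.60] (adjusted p = 0.555). LPS once cultures had 632, 1380.1 and 2093 units of it. Nos2, the inducible nitric oxide synthase, had 25.8, 35 and 29.5 units in restimulated and 27.4, 21.5 and 26.8 in untreated cultures and a change of 0.16 ± 0.16 [0.10]. All 3 genes are at the dim end of the arrays in both groups, where log2(value + 16) compresses differences.

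Setting the same restimulated arrays against LPS once placed these genes relative to a first response. In that comparison limma called 2.65% of all genes higher and 3.68% lower, and 4.17% and 2.97% without restimulated C. Il6 stood above untreated but below LPS once, with a restimulated minus LPS once change of -2.98 ± 0.48 [-2.95] (adjusted p = 0.0066). The same held for Il1a at -2.65 ± 0.59 [-2.65], Tnf at -1.45 ± 0.26 [-1.21] and Tnfsf9, the ligand of the costimulatory receptor 4-1BB, at -3.60 ± 0.33 [-3.59]. Tnfsf9 rose by 2.46 ± 0.33 [2.47] against untreated. For Il10 and Il12b the changes against LPS once were -5.72 ± 0.17 [-5.61] and -5.18 ± 0.34 [-4.89]. Ccl5, Acod1 and Saa3 had -0.05 ± 0.15 [0.08], -0.21 ± 0.77 [-0.14] and 0.33 ± 0.12 [0.38], none of them called. Saa3 was near the top of the arrays in both groups, and restimulated Ccl5 and Acod1 were bright as well. Above LPS once stood Slpi at 3.17 ± 0.49 [2.88], Cfb at 2.82 ± 0.39 [2.82] and Marco at 2.35 ± 0.45 [2.79].

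**Figure D3:**
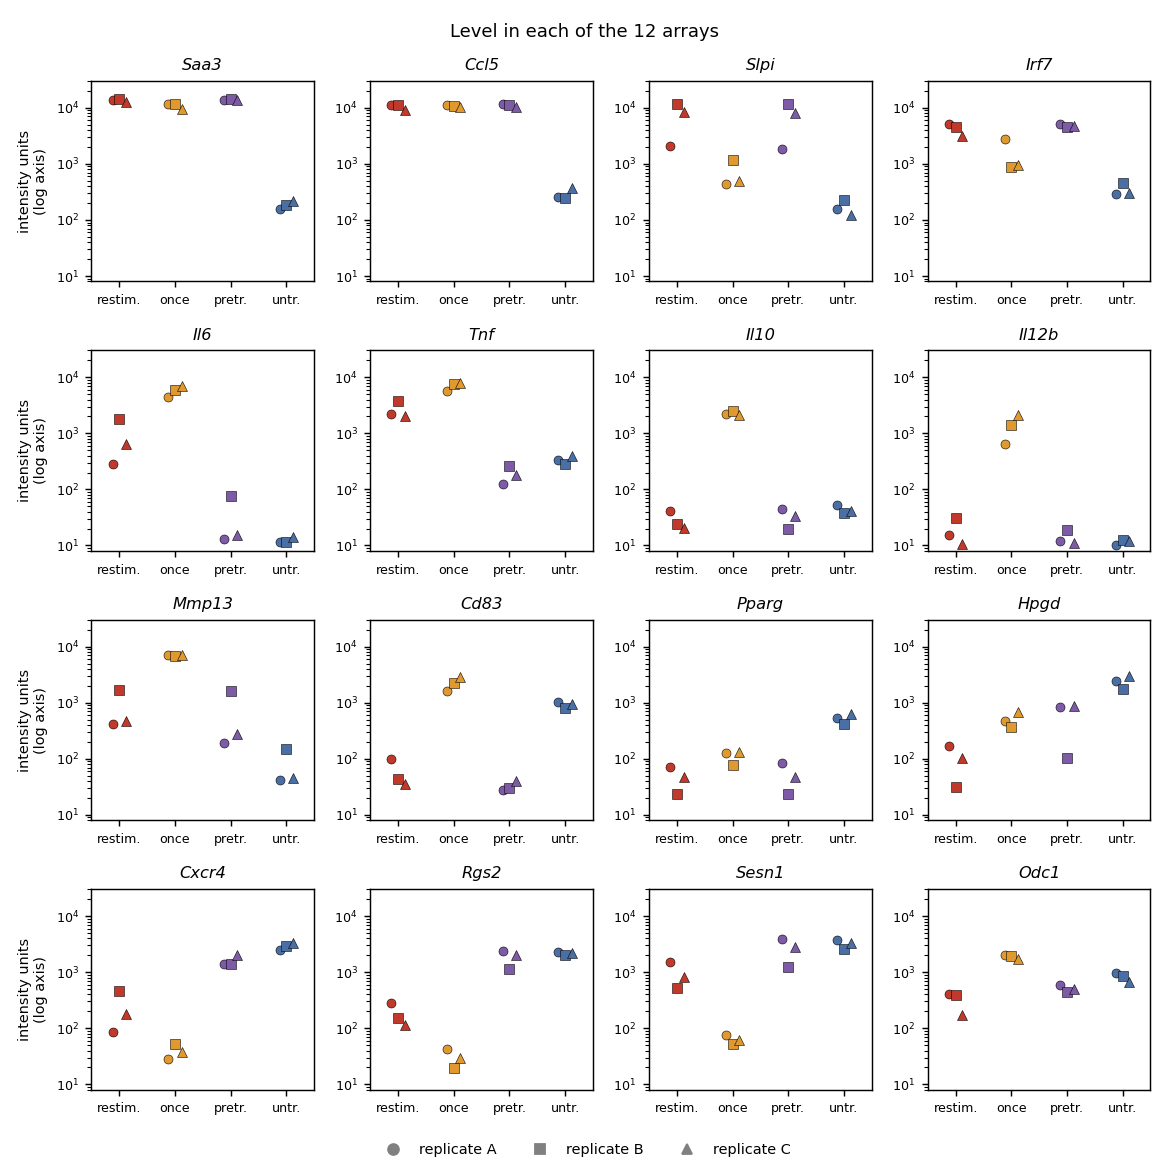
Intensity units (log axis) of 16 genes in each of the 12 arrays, by group from left to right restimulated, LPS once, pretreated and untreated, with a symbol per replicate letter. Saa3, near the top of the arrays, and Ccl5 are high in all groups that met LPS, Il6 and Tnf lie between untreated and LPS once after restimulation, and Il10 and Il12b overlap the untreated values.

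Interferon-induced genes, most of which encode antiviral proteins, had the highest share of calls of all lists. Of 35 measured, 25 rose and 1 fell, with a median log2 change of 1.61, and the counts were the same without restimulated C. These are 71.4% and 2.86%, beside 1.61% and 4.44% over all genes. The count of higher genes depended on single arrays, with 14 without untreated A, 12 without untreated C and 13 without restimulated A, and it was 15 without the replicate block. Irf7, a transcription factor that amplifies the interferon response, measured 5148, 4458 and 3179 units in restimulated and 291, 463 and 301 in untreated cultures. The change was 3.54 ± 0.37 [3.62], and restimulated cultures stood above LPS once as well, by 1.64 ± 0.37 [1.72]. Mx1, an antiviral GTPase, measured 2723, 491 and 264 units in restimulated and 52.5, 74.3 and 44.2 in untreated cultures, a change of 3.34 ± 0.59 [3.88]. Restimulated A was brighter than B and C for Mx1, and also for Oasl1 and Ifit1, which rose by 3.32 ± 0.60 [3.95] and 3.30 ± 0.48 [3.65]. The 1 gene that fell was Irf8, a lineage factor of macrophages, at -1.31 ± 0.23 [-1.22], named here after its values were seen and not called without untreated B or C. Ifnb1, the interferon beta gene, was near the floor with 20.5, 24.5 and 35 units in restimulated and 16.2, 19 and 18.2 in untreated cultures, and it is also named after its values were seen.

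Among prostaglandin genes the synthase Ptges rose and the degrading enzyme Hpgd fell. Of 15 genes of prostaglandin and leukotriene synthesis 5 rose and 3 fell, 33.3% and 20% beside 1.61% and 4.44% over all genes. Without restimulated C 4 rose and 3 fell, with 2 higher without untreated B and 3 higher without untreated C or restimulated B. Ptges, the inducible prostaglandin E synthase, measured 2469, 2861 and 2261 units in restimulated and 53, 51.5 and 31.8 in untreated cultures, a log2 change of 5.39 ± 0.40 [5.30]. Hpgd, the dehydrogenase that inactivates prostaglandins, measured 169, 31.5 and 103 units in restimulated cultures, against 2399.7, 1783 and 2949.8 in untreated ones. All restimulated values were below all untreated ones, at -4.53 ± 0.48 [-4.34], and the restimulated minus LPS once change was -2.34 ± 0.48 [-2.15] (adjusted p = 0.0169). A further probe set of Hpgd had a change of -0.80 and was not called. Ptgs2, cyclooxygenase 2, rose by 2.98 ± 0.72 but had 168, 481 and 29.4 units across the untreated cultures and was not called without restimulated C (2.39, adjusted p = 0.0872), without any 1 of the untreated arrays, restimulated B or pretreated A. Ptgir, the prostacyclin receptor, rose by 1.49 ± 0.31 [1.68] and lost its call without untreated B or C and without restimulated A or B (adjusted p up to 0.0723).

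Proteins that restrain Toll-like receptor signalling were represented by 29 genes, of which 10 rose and 2 fell, with 8 and 1 without restimulated C. With all arrays the shares were 34.5% and 6.90%, beside 1.61% and 4.44% over all genes. The higher count was 4 without untreated B and 5 without untreated C. Irak3, which blocks the kinases downstream of the receptors, measured 4792, 3528 and 4035 units in restimulated and 706, 916 and 679 in untreated cultures, with no overlap and a change of 2.40 ± 0.23 [2.40]. LPS once cultures had 3588, 3927 and 3504 units, and the difference between restimulated and LPS once was 0.15 ± 0.23 [0.15] (adjusted p = 0.726). Socs3, an inhibitor of cytokine receptor signalling, measured 2477, 2486 and 2199.8 units in restimulated and 188, 210.1 and 139 in untreated cultures, a change of 3.64 ± 0.31 [3.58], and -2.02 ± 0.31 [-2.08] against LPS once. Dusp16, a MAP kinase phosphatase, rose by 2.13 ± 0.24 [2.00] by its brightest probe set and by 0.68 in the other. Tnfaip3, which encodes the ubiquitin-editing enzyme A20, rose by 2.08 ± 0.39 [2.18], a call lost without untreated B or C (adjusted p up to 0.0672). The 2 genes that fell were Zfp36 at -1.06 ± 0.19 [-1.02] and Inpp5d at -1.03 ± 0.27 [-0.85], both close to the 2-fold limit, lost without 1 or more arrays and named after their values were seen.

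Of 23 Toll-like receptors and signalling proteins 2 rose and 1 fell, 8.70% and 4.35%, beside 1.61% and 4.44% over all genes, and 2 and 0 without restimulated C. Tlr4 measured 469.9, 677 and 263 units in restimulated and 729, 960 and 895 in untreated cultures. Its restimulated values were all below the untreated ones, and the change of -0.94 ± 0.24 [-0.59] (adjusted p = 0.0404) was under the 2-fold limit. Tlr1, a receptor of bacterial lipopeptides, rose by 1.84 ± 0.17 [1.90] and Traf1, an adaptor of the tumour necrosis factor receptors, by 3.89 ± 0.48 [3.85]. Tlr13, which senses bacterial ribosomal RNA in mice, changed by -1.49 ± 0.33 and lost its call without untreated A, untreated C or restimulated C (-1.11). Of 9 NF-kappaB subunits and kinases 2 rose and 1 fell, 22.2% and 11.1% beside 1.61% and 4.44% over all genes. Nfkb2 rose by 1.41 ± 0.24 [1.41] and the kinase Ikbke by 1.33 ± 0.20 [1.35]. The kinase Map3k14 fell, at -1.12 ± 0.19 and at -0.87 without restimulated C. Nfkb2 lost its call without untreated C (adjusted p = 0.055), and with it the list's higher count was 1.

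Of 30 stimulus-induced transcription factors 5 were higher and 6 lower, 16.7% and 20% beside 1.61% and 4.44% over all genes. Without restimulated C 4 were higher and 4 lower. Ets2, an ETS family factor, measured 2988, 2549 and 2884 units in restimulated and 551, 646 and 339.5 in untreated cultures, a change of 2.46 ± 0.37 [2.29]. Cebpa, a factor of myeloid differentiation, measured 761, 397 and 204 units in restimulated and 2998, 2666 and 3745 in untreated cultures, a change of -2.92 ± 0.39, and of -2.36 without restimulated C. Egr1 changed by -1.94 ± 0.29 [-1.94] and Nr4a1, an orphan nuclear receptor, by -1.85 ± 0.39 [-1.97]. Both were also low in pretreated cultures, at 149, 76.8 and 84.7 and 118, 123 and 124 units. Nr4a1 lost its call without any 1 of the untreated arrays or restimulated B (adjusted p up to 0.0759). Without untreated A or untreated B 3 factors were lower.

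Attractant receptors changed in both directions. Of 15 measured, 2 rose and 4 fell, also without restimulated C. These are 13.3% and 26.7%, beside 1.61% and 4.44% over all genes. Fpr2, a receptor of formyl peptides and serum amyloid A, measured 7851, 7383 and 7166 units in restimulated and 259, 227 and 208 in untreated cultures. Its values were tight in both groups, a log2 change of 4.92 ± 0.22 [4.95] (adjusted p = 0.000142). Cxcr4, the receptor of Cxcl12, measured 84.4, 455 and 182 units in restimulated and 2525, 2975 and 3319 in untreated cultures, a change of -3.80 ± 0.38 [-3.67]. Pretreated cultures had 1389, 1409.9 and 2049 units and LPS once cultures 27.8, 51.9 and 38.2, so restimulated cells stood above cells given LPS once, by 1.95 ± 0.38 [2.09] (adjusted p = 0.0138). Cx3cr1, the fractalkine receptor, changed by -2.35 ± 0.37 [-1.88], and Ccr2, the receptor of Ccl2, by -2.28 ± 0.25 [-2.12]. Also lower was S1pr1, a sphingosine 1-phosphate receptor, which changed by -1.68 ± 0.24 [-1.57], and the other higher gene, Ccrl2, by 1.01 ± 0.26 [1.38], just past the 2-fold limit and not called without any 1 of 9 arrays. S1pr1 and Ccrl2 are named after their values were seen.

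Scavenger and lectin receptors, which take up microbes and debris, changed both ways, 5 of 21 higher and 5 lower. Each way this was 23.8%, beside 1.61% higher and 4.44% lower over all genes. The counts were 6 and 3 without restimulated C. The lower count was 2 without untreated B, 2 without untreated C, 3 without pretreated C and 2 without the replicate block. Marco, which binds bacteria, measured 7265, 5269 and 1908 units in restimulated and 271, 53.2 and 129.8 in untreated cultures. Untreated B was lowest and restimulated C lowest of its group, and the change was 4.88 ± 0.45 [5.32]. Clec4e, the receptor Mincle, rose by 4.10 ± 0.55 [4.07] and Clec5a by 2.30 ± 0.32 [2.47]. Cd5l, a secreted scavenger protein of resident macrophages, measured 424, 153 and 83.5 units in restimulated and 2372, 761 and 2046 in untreated cultures, and replicate A was brightest in both groups. Its change was -3.01 ± 0.51 [-2.55] against untreated and -2.04 ± 0.51 [-1.59] against LPS once, where the call was lost without restimulated C (adjusted p = 0.0798).

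In the macrophage lineage list 2 of 25 genes rose and 7 fell, 8% and 28% beside 1.61% and 4.44% over all genes. Without restimulated C 2 rose and 6 fell, with 4 lower without untreated B and 3 without untreated C. The receptors Axl and Mertk, which take up dying cells, both fell. Axl measured 401, 176 and 124 units in restimulated and 1379, 655 and 2021 in untreated cultures, a change of -2.47 ± 0.38 and of -1.89 without restimulated C. Mertk measured 725, 391 and 176 units in restimulated and 1912, 1320.2 and 1775 in untreated cultures, a change of -2.10 ± 0.37 [-1.62], and lost its call without untreated B or C (adjusted p up to 0.0571). Mertk was above LPS once by 1.44 ± 0.37 [1.92], while Axl had a change of -2.21 ± 0.38 [-1.62] against it. A second probe set of Axl had a change of -0.02. Mef2c, a transcription factor, changed by -1.98 ± 0.34 [-1.54], also lost without untreated B or C. Fcgr2b, the inhibitory Fc receptor, measured 5946, 7507 and 6944 units in restimulated and 1453, 1839 and 903 in untreated cultures, with no overlap, and rose by 2.32 ± 0.17 [2.17]. Without probe sets that may share targets it stood at 0.51 and was not called (limma adjusted p = 0.222). Fewer cells of a kind and less RNA per cell cannot be told apart in such bulk cultures.

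Surface ligands that steer T cells rose in 6 of 18 cases and fell in 2, with 7 and 3 without restimulated C. With all arrays the shares were 33.3% and 11.1%, beside 1.61% and 4.44% over all genes. Cd83, which mature dendritic cells display on their surface, measured 97.4, 43.7 and 36 units in restimulated and 1040.1, 794 and 961 in untreated cultures, against 1604, 2211 and 2847 after LPS once. It was lower than in either of these groups, with changes of -3.74 ± 0.31 [-3.41] against untreated and -4.95 ± 0.31 [-4.61] against LPS once (adjusted p = 0.000221). Havcr2, the inhibitory receptor TIM-3, measured 32.3, 47.5 and 20.3 units in restimulated and 569.8, 328 and 406 in untreated cultures, a change of -3.19 ± 0.25 [-3.00]. Slamf8, a receptor of the SLAM family, rose by 2.50 ± 0.40 [2.80]. Of 12 MHC class II presentation genes 2 fell and 0 rose, 16.7% and 0% beside 4.44% and 1.61% over all genes. The 2 were H2-Eb1 at -1.60 ± 0.41 [-1.57] and H2-Aa at -1.59 ± 0.43 [-1.70]. Restimulated B was the lowest for both, at 289 and 486 units, and neither gene was called without restimulated C (adjusted p = 0.0913 and 0.0775), without any 1 of the untreated arrays or without the replicate block. Limma called 0 of the list higher, and 1 was higher at an unadjusted p under 0.05. In MHC class I loading 1 of 15 genes rose, 6.67% beside 1.61% over all genes. It was the peptide transporter Tap1, at 1.30 ± 0.30 [1.52]. Its call was lost without any 1 of 5 arrays (all untreated ones and restimulated A and B, adjusted p up to 0.1) and without the replicate block.

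**Figure D4:**
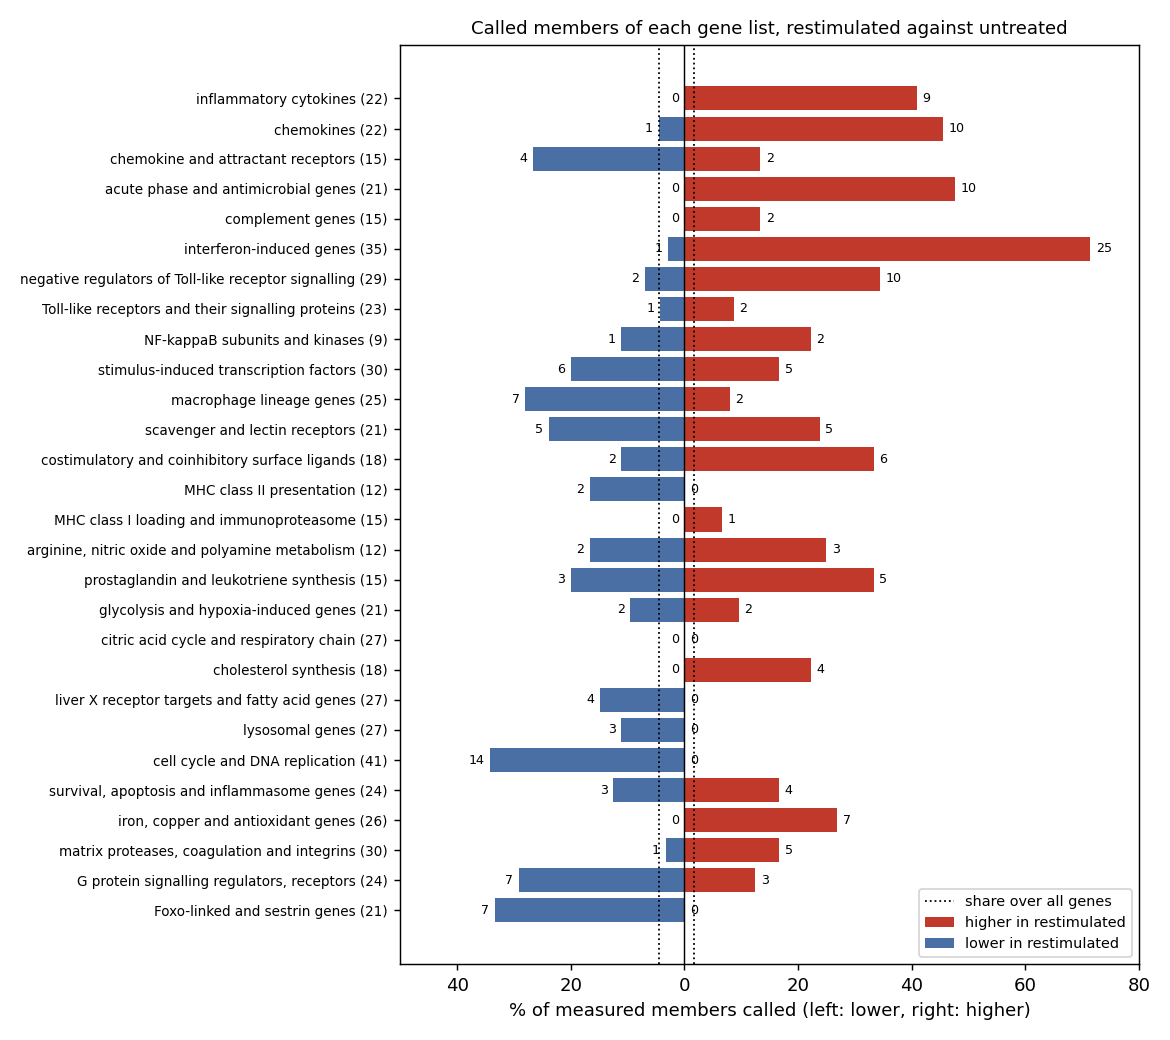
Share of the measured members of each gene list (number in brackets) called higher, to the right in red, or lower, to the left in blue, in restimulated against untreated macrophages, with the count at each bar. Dotted lines mark the share over all genes, 1.61% higher and 4.44% lower. Interferon-induced, acute phase, chemokine and cytokine lists extend farthest to the right and the cell cycle and Foxo-linked lists farthest to the left.

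In arginine, nitric oxide and polyamine metabolism 3 of 12 genes rose and 2 fell, with the same counts without restimulated C. The shares were 25% and 16.7%, beside 1.61% and 4.44% over all genes. Slc7a2, an arginine importer, measured 692, 3535 and 1581 units in restimulated and 51.8, 99.1 and 77.2 in untreated cultures, a change of 4.14 ± 0.44 [4.13]. Arg1, which splits arginine into ornithine and urea, measured 209.8, 1076 and 94.2 units in restimulated and 20.1, 13.2 and 13.8 in untreated cultures, with restimulated B highest. It rose by 3.25 ± 0.72 [3.74] and was above LPS once by 2.94 ± 0.72 [3.43], but its call was lost without any 1 of the untreated arrays or restimulated B (adjusted p up to 0.0968). Gch1, the first enzyme of tetrahydrobiopterin synthesis, rose by 2.39 ± 0.27 [2.42]. Odc1, the first enzyme of polyamine synthesis, measured 416, 397 and 173 units in restimulated and 953, 858 and 677 in untreated cultures, a change of -1.37 ± 0.21 [-1.06], whereas LPS once cultures had 2049, 1932 and 1699. The other lower gene, the polyamine acetylase Sat1, changed by -1.27 ± 0.25 [-1.06] and is named after its values were seen, and 1 gene of the list was lower without untreated B or C.

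Of 21 glycolysis and hypoxia-induced genes 2 rose and 2 fell, 9.52% each way beside 1.61% and 4.44% over all genes, Slc16a3, a lactate exporter, at 1.19 ± 0.23 [1.15], the glycolytic regulator Pfkfb3 at 1.05 ± 0.22 [1.21], hexokinase 2 (Hk2) at -1.05 ± 0.23 and Vegfa, the vascular growth factor, at -1.82 ± 0.19 [-1.70]. Only Vegfa of these 4 kept its call without any of the 12 arrays. Without untreated B 0 of the list were higher, and without restimulated C Hk2 changed by -0.84. Pfkfb3 measured 884, 689 and 539 units in restimulated and 289.6, 312 and 378 in untreated cultures, against 6795, 6655 and 4712 after LPS once, a difference of -3.08 ± 0.22 [-2.93] from LPS once. In the citric acid cycle and respiratory chain limma called 0 of 27 genes in either direction. At an unadjusted p under 0.05 this list had 5 higher and 7 lower, beside 2595 and 4197 of all 18193 genes. The largest changes in this list were -0.82 ± 0.16 [-0.70] for fumarase (Fh1) and -0.80 ± 0.14 [-0.72] for the succinate-CoA ligase subunit Suclg2.

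Among lipid genes many calls rested on single arrays. Of 18 cholesterol synthesis genes 4 rose and 0 fell, 22.2% and 0% beside 1.61% and 4.44% over all genes. Their median log2 change was 0.84. At an unadjusted p under 0.05 limma had 15 higher and 0 lower, beside 2595 and 4197 of all 18193 genes. Idi1, Fdft1, Fdps and Hsd17b7 were the 4, at 1.43 [1.32], 1.31 [1.25], 1.18 [1.20] and 1.15 [1.03], and for each of them leaving out any 1 of at least 5 arrays ended the call. The count was 1 without restimulated C, where none of these 4 was called and the 1 was Mvd at 1.02 (named after its values were seen), 0 without restimulated A, untreated A or untreated C, 2 without untreated B or LPS once B, 11 without restimulated B and 0 without the replicate block. Of 27 liver X receptor targets and fatty acid genes 4 fell and 0 rose, 14.8% and 0% beside 4.44% and 1.61% over all genes. There were 3 lower and 1 higher without restimulated C and 2 lower without untreated B, untreated C or restimulated A. With all arrays limma called 0 higher, and 1 was higher at an unadjusted p under 0.05. Pparg, the lipid-sensing nuclear receptor, measured 71.5, 23.6 and 48 units in restimulated and 536, 420.4 and 633 in untreated cultures, a change of -3.15 ± 0.19 (adjusted p = 0.000329) that was as large without restimulated C, -3.11. Mylip, a ubiquitin ligase of the low-density lipoprotein receptor, changed by -2.25 ± 0.33 [-1.84]. Fabp4, a fatty acid carrier, and Abcg1, a cholesterol exporter, changed by -2.44 ± 0.51 [-1.88] and -1.65 ± 0.36 [-1.32]. Both lost their calls without any 1 of the untreated arrays or restimulated A, and Abcg1 also without restimulated C. Fabp4 also lost its call, at -0.85, without probe sets that may share targets.

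Of 27 lysosomal genes 3 fell and 0 rose, and 1 fell without restimulated C. The 3 are 11.1% of the list, beside 4.44% lower over all genes. Atp6v0d2, a subunit of the vacuolar proton pump, measured 58, 29.8 and 34 units in restimulated and 412, 131 and 467 in untreated cultures and kept its call whichever array was left out, at -2.49 ± 0.26 [-2.27]. Lipa, lysosomal acid lipase, and Npc1, a cholesterol carrier, also fell, Lipa at -1.10 ± 0.18 and Npc1 just past the 2-fold limit. Without restimulated C they stood at -0.88 and -0.76, under that limit. Limma called 0 higher, and 2 were higher and 20 lower at an unadjusted p under 0.05, beside 2595 and 4197 of all 18193 genes. Over the whole list the median log2 change was -0.38 with restimulated C and -0.24 without it.

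Iron, copper and antioxidant genes rose in 7 of 26 cases and fell in 0, the same without restimulated C. The shares were 26.9% and 0%, beside 1.61% and 4.44% over all genes. No member was called lower by limma (0 of 26), although 3 had an unadjusted p under 0.05 with a lower level and 1 was called without LPS once A. Slc7a11, the cystine importer that feeds glutathione synthesis, measured 789, 1809.8 and 741 units in restimulated and 29.8, 27 and 37.7 in untreated cultures. Every restimulated value was above every untreated one, at 4.45 ± 0.70 [4.66]. Sod2, the mitochondrial superoxide dismutase, rose by 1.96 ± 0.16 [1.98] and Slc31a1, a copper importer, by 1.63 ± 0.12 [1.65], with a small spread between letters. In pretreated cultures Slc7a11 differed by letter, 47.8, 1066 and 133 units in A, B and C.

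Among cell cycle and DNA replication genes the calls with all arrays were decreases. Of 41 measured, 14 fell and 0 rose, 34.15% and 0% beside 4.44% and 1.61% over all genes. The median log2 change was -0.81, and 12 fell without restimulated C. Leaving out each array in turn gave 10 to 16 lower genes. Limma called 0 higher. At an unadjusted p under 0.05 the list had 1 higher and 30 lower, beside 2595 and 4197 of all 18193 genes. Cdt1, which licenses replication origins, measured 247, 328 and 258 units in restimulated and 969, 1024 and 1328 in untreated cultures, with no overlap and a change of -1.93 ± 0.19 [-1.76]. Ccnd1, cyclin D1, measured 147, 69.9 and 43.3 units in restimulated and 1106, 211 and 721 in untreated cultures, where replicate B was lowest, a change of -2.61 ± 0.37 [-2.31]. Rrm2, a subunit of ribonucleotide reductase, changed by -1.90 ± 0.26 [-2.19] and was not called without the replicate block, its letters differing in both groups alike, 68.9, 98.5 and 33.2 units in restimulated and 390.1, 473 and 108 in untreated cultures. Cenpa, the centromeric histone H3 variant, changed by -2.73 ± 0.24 [-2.79] in its brightest probe set, but a probe set without shared targets had a change of 0.22 in the other direction (adjusted p = 0.131).

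Of 24 survival, apoptosis and inflammasome genes 4 rose and 3 fell, and 6 and 3 did without restimulated C. With all arrays the shares were 16.7% and 12.5%, beside 1.61% and 4.44% over all genes. The death receptor Fas rose, with 420.1, 579 and 322 units in restimulated and 89.6, 103 and 58.1 in untreated cultures and a change of 2.19 ± 0.21 [2.19]. The pro-apoptotic genes Bcl2l11 (Bim) and Pmaip1 (Noxa) fell, at -1.71 ± 0.26 [-1.55] and -2.01 ± 0.29 [-1.76], as did Gadd45g, a growth arrest gene, at -2.04 ± 0.27 [-1.90]. Bcl2l11 measured 374, 875 and 481 units in restimulated and 1587, 1837 and 2009 in untreated cultures. Its change against LPS once was -2.31 ± 0.26 [-2.15].

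Among 30 matrix proteases, coagulation genes and integrins 5 rose and 1 fell, the same without restimulated C. These are 16.7% and 3.33%, beside 1.61% and 4.44% over all genes, so the lower share was under that of all genes. Itgb8, an integrin subunit that takes part in the activation of TGF-beta, measured 226, 616 and 635 units in restimulated and 11.1, 10 and 9.56 in untreated cultures. Untreated values were at the floor of the arrays, and the change was 4.14 ± 0.33 [3.85]. The metalloproteinases Mmp9 and Mmp13 rose by 3.19 ± 0.33 [3.14] and 3.07 ± 0.49 [3.17], and against LPS once they went opposite ways, Mmp9 at 2.48 ± 0.33 [2.43] and Mmp13 at -3.31 ± 0.49 [-3.21]. Mmp13 had 411, 1683 and 463 units in restimulated cultures, 6957, 6792 and 7146 after LPS once and 42.2, 147 and 45.2 in untreated ones. Serpinb2, an inhibitor of plasminogen activators, rose by 4.55 ± 0.79 [4.01] and lost its call without untreated B or C (adjusted p up to 0.0537). The 1 gene that fell was Timp2, a metalloproteinase inhibitor, at -2.29 ± 0.31 [-2.13], named after its values were seen, and 2 genes fell without restimulated B.

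G protein signalling regulators and G protein-coupled receptors had 3 of 24 higher and 7 lower, 12.5% and 29.2% beside 1.61% and 4.44% over all genes. The counts were 2 and 5 without restimulated C, and 4 were lower without untreated C. Rgs2, which ends G protein signals, measured 285, 155 and 112 units in restimulated and 2274, 1992 and 2214 in untreated cultures, a change of -3.53 ± 0.24 [-3.22]. Pretreated cultures had 2360.4, 1138 and 2027 units, close to untreated, and LPS once cultures 43.5, 19.6 and 28.9, so restimulated cells were above LPS once by 2.04 ± 0.24 [2.35] (adjusted p = 0.00204). The remaining probe set of Rgs2 had a change of 0.04. Gpr183, a receptor of oxysterols, measured 65, 121 and 51.4 units in restimulated and 1499, 1052 and 1020.4 in untreated cultures, a change of -3.71 ± 0.35 [-3.46]. Cnr2, the cannabinoid receptor of immune cells, changed by -2.88 ± 0.20 [-2.63] and was near the floor after restimulation, at 21.7, 44.8 and 16.6 units. Gpr18, a receptor of lipid ligands, rose by 3.60 ± 0.44 [3.61].

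Foxo-linked and sestrin genes fell in 7 of 21 cases and rose in 0, 33.3% and 0% beside 4.44% and 1.61% over all genes. The lower count was 4 without restimulated C or untreated C and 3 without untreated B. Limma called 0 higher, 0 were higher at an unadjusted p under 0.05, and the median log2 change was -0.74. Sesn1, a stress-response gene that restrains mTORC1, measured 1487, 522 and 815 units in restimulated and 3687, 2563 and 3249 in untreated cultures. LPS once cultures had 77, 51.4 and 61.2, so the gene's change was -1.85 ± 0.24 [-1.76] against untreated and it stood above LPS once by 3.48 ± 0.24 [3.56] (adjusted p = 0.000275). Tsc22d3, the glucocorticoid-induced leucine zipper, changed by -2.47 ± 0.40 [-1.96] and Rassf3, a Ras association domain gene, by -3.14 ± 0.37 [-2.74]. Tsc22d3 stood at -0.03 and was not called without probe sets that may share targets (limma adjusted p = 0.828). Against LPS once they had changes of 1.58 ± 0.40 [2.09] and 1.25 ± 0.37 [1.66], the first called and the second called only without restimulated C (adjusted p = 0.015). Foxo3, a factor of stress resistance, changed by -1.40 ± 0.28 [-1.25] and lost its call without any 1 of the untreated arrays.

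The largest decreases of all genes lay partly outside these lists. Cytip, which binds cytohesins and regulates cell adhesion, measured 64.5, 119 and 41.8 units in restimulated and 2397, 2789 and 1487 in untreated cultures. It had the most negative change, -4.66 ± 0.35 [-4.43] (adjusted p = 0.000678), and restimulated minus LPS once was -0.31 ± 0.35 [-0.09], which was not called. Il7r, the interleukin 7 receptor chain, measured 84.1, 481 and 62.9 units in restimulated and 2651, 2231 and 3193 in untreated cultures, with restimulated B highest, and changed by -4.09 ± 0.62 and by -3.47 without restimulated C. Cd207, the C-type lectin langerin, measured 73.6, 25.1 and 48.4 units in restimulated and 1697, 486 and 918 in untreated cultures. The letters kept the same order in both groups, which made its error small, -3.91 ± 0.17 [-3.95], and its change against LPS once was -2.53 ± 0.17 [-2.57].

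Entpd1, the ectonucleotidase CD39, measured 129, 61.2 and 67.5 units in restimulated and 872, 933 and 878 in untreated cultures, a change of -3.22 ± 0.37 [-3.10]. Pde3b, a phosphodiesterase that degrades cyclic AMP, changed by -3.53 ± 0.33 [-3.41], and St6gal1, a sialyltransferase, by -3.58 ± 0.40 [-3.27]. Enc1, an actin-binding protein, changed by -3.73 ± 0.29 [-3.73], Rnf144b, a ubiquitin ligase, by -3.44 ± 0.47 [-3.37], and Tent5c, a poly(A) polymerase, by -3.26 ± 0.32 [-2.94]. For St6gal1 and Rnf144b another probe set was not called, at -0.52 and 0.12. Among the increases outside the lists stood U90926, with 1407, 7827 and 3804 units in restimulated and 39.9, 56.4 and 39.2 in untreated cultures, replicate A lowest after restimulation, and a change of 5.85 ± 0.40 [5.75]. Its pretreated cultures had 1504, 7989.8 and 4213 units, and restimulated minus pretreated was -0.09 [-0.19] (adjusted p = 0.929).

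Markers of other cells the cultures could hold differed by cell type in their level. Summed over the markers, T cell genes gave 196 to 256 units in restimulated and 180 to 253 in untreated cultures, and B cell genes 88.6 to 121 and 83.8 to 117. Dendritic cell genes gave 155 to 230 units in restimulated and 124 to 132 in untreated cultures, which do not overlap, and Flt3 among them changed by 0.41 ± 0.07 [0.36] (adjusted p = 0.0116), under the 2-fold limit. The erythroid and mast cell genes gave 60.8 to 69.7 and 50.4 to 71.5. Neutrophil genes gave 147 to 219 units in restimulated and 149 to 860 in untreated cultures, and the untreated range came from Ngp, at 62.2 to 745 units. S100a8 and Camp stand on the wider neutrophil list, and the part of neutrophils in their values was not tested. Fibroblast genes gave 157 to 2688 units in restimulated and 118 to 3486 in untreated cultures, with Col1a1 and Col3a1 bright in some letters and dim in C in both groups. Acta2, smooth muscle actin, changed by -1.15 ± 0.21 [-1.40], at 1596, 1793 and 245 units in restimulated and 4469.8, 4980.1 and 352 in untreated cultures. Its call was lost without untreated B, without restimulated A or without the replicate block, and its direction turned without probe sets that may share targets (0.092, adjusted p = 0.312 by limma). Acta2 was bright in A and B and dim in C in both groups, and the part of fibroblasts in the matrix genes above was not tested. Limma called 0 members of the T cell, B cell, dendritic cell and erythroid lists and 0 of 10 housekeeping genes. Of these 10, 3 were higher and 4 lower at an unadjusted p under 0.05, beside 2595 and 4197 of all 18193 genes.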

How the data were processed

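Total RNA of 12 macrophage cultures was measured on Affymetrix arrays, labelled with biotin and PE per the labels' protocols. The deposited values are linear intensity values, 1 per probe set and array, and the sources used here do not give the program, background correction or scaling behind them. The table held 45101 probe sets: 64 controls, 34945 with 1 gene symbol in the platform annotation, 932 with several and 9160 unnamed here. Current symbols came by Entrez ID from the RefSeq gene table (GRCm38.p6) for 34741, and 204 kept the platform's.

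Values were transformed as log2(value + 16), which understates changes of dim genes, with no further scaling. Limma 3.58.1 in R 4.3.3 (lmFit, eBayes) was run on all 12 arrays with group means and the replicate letter as a block (6 residual and 1.82 prior degrees of freedom), after a test on simulated data. All single-gene adjusted p-values are limma's, with Benjamini-Hochberg adjustment over 34945 probe sets, and errors beside log2 changes are its standard errors. Values stand in the order of replicates A, B and C. P-values set the mean change between groups against the spread between these cultures. A call needed adjusted p under 0.05 and at least 2-fold. A gene stands for its probe set of highest mean, and 9010 of 18193 genes have more than 1. No gene had probe sets called in opposite directions.

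The letters were taken as pairs because the comparison was given as paired by letter. Over 13435 probe sets, deviations from the group means correlated at 0.289 to 0.668 for the 18 pairs of arrays of the same letter. For the 36 pairs of different letters they correlated at -0.446 to -0.035. Deviations from the mean of 3 arrays cancel out within a group. The negative values therefore follow in part from the positive ones and are no separate evidence for pairing.

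Gene lists (35, with 663 genes measured of 725) and key genes were chosen with earlier results of these data known. Named are the 15 largest increases and 15 largest decreases among called genes whose groups do not overlap, up to 4 called members of each list with the largest changes (2 where fewer were called) and the key genes. Alternatives were other scalings, pseudocounts, filters and fits, and leaving out each array.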

Additional observations from a re-analysis of the deposited data

Results flagged for a closer look

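Probe sets that enter no comparison of the report also carried changes. Of 932 probe sets with several gene symbols limma called 17 higher and 20 lower in restimulated than in untreated macrophages, 1.82% and 2.15%. Of 9160 probe sets unnamed here it called 46 higher and 153 lower, 0.50% and 1.67%, with a largest log2 increase of 6.35. Among the tested probe sets with 1 symbol the shares were 1.34% and 3.64%. Only the share of higher calls with several symbols was above these.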

How the results depend on the processing

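Counts of calls depended on the fit. With all 12 arrays and the replicate block 293 genes were higher and 808 lower (469 and 1272 probe sets). Without the replicate block, that is with no pairing of letters, 238 genes were higher and 697 lower (382 and 1108 probe sets). A fit of the 6 arrays of the compared groups alone, which leaves 2 residual degrees of freedom, called 102 and 135 genes (162 and 198 probe sets). Scaling each array to its 75th percentile moved the median of all genes by 0.20 on the log2 scale and called 493 and 456 genes (818 and 711 probe sets), so that 51.9% of the calls were higher, beside 26.6% in the report. Quantile normalization called 394 and 548, 41.8% higher. A pseudocount of 64 gave 510 lower genes and 756 lower probe sets, and averaging all probe sets of a gene gave 525 lower genes. Leaving out 1 array gave 189 to 292 higher and 433 to 1107 lower genes (305 to 527 and 662 to 1726 probe sets), and leaving out all arrays of a letter 125 to 165 and 204 to 546 genes (209 to 247 and 313 to 818 probe sets). The cause of these shifts was not tested.

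Of 132 named genes 114 were called, and 83 of these kept the call whichever of the 12 arrays was left out. Under every alternative 32 kept it, the 6-array fit ending 63 calls and the fit without the block 13. Leaving out all arrays of letter A, B or C ended 53, 35 and 58 calls. No named gene changed direction except when probe sets that may share targets were left out, where Cenpa stood at 0.22 (adjusted p = 0.131) and Acta2 at 0.092 (adjusted p = 0.312). Without such probe sets Hpgd, Arhgap19, Dusp16, Fcgr2b, Fabp4 and Tsc22d3 also lost their calls. Of 70 counts of list members 11 differed by over 1.5 times without restimulated C and 12 without probe sets that may share targets. Of 264 changes of named genes against LPS once or pretreated, a check chosen after seeing the data, 26 gained or lost a call without restimulated C, and no called change turned its direction. Genes near the floor, such as Il10, Il12b and Nos2, are limited by signal over background.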

Other observations

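The genes in this paragraph are further members of the lists that were called with and without restimulated C, and they were chosen after their values were seen. Among interferon-induced genes, Rsad2, the antiviral enzyme viperin, rose by 3.14 ± 0.41 [3.44] (SE, n = 3 per group), Gbp2, a guanylate-binding protein, by 3.25 ± 0.34 [3.41], Zbp1, a nucleic acid sensor, by 3.09 ± 0.35 [3.18] and Usp18, which removes ISG15 from proteins, by 2.90 ± 0.42 [3.27]. Il1rn, the antagonist of interleukin 1 receptors, measured 1226, 3016 and 635 units in restimulated and 201, 339.9 and 111 in untreated cultures. Ccl3 and Ccl4, attractants of monocytes and lymphocytes, rose by 3.17 ± 0.25 [3.14] and 2.34 ± 0.17 [2.48]. Cd274, the inhibitory ligand PD-L1, rose by 2.41 ± 0.33 [2.65], Cd40 by 2.04 ± 0.31 [2.25] and the adhesion molecule Icam1 by 1.71 ± 0.15 [1.73].

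Trem2, a lipid-sensing receptor, measured 1770, 1862 and 1202 units in restimulated and 6576, 4959 and 6465 in untreated cultures, a change of -1.90 ± 0.18 [-1.70]. Gas6, the ligand of Axl and Mertk, changed by -1.84 ± 0.30 [-1.62]. The replication genes Mcm6, Mcm7 and Top2a changed by -1.81 ± 0.22 [-1.56], -1.65 ± 0.20 [-1.61] and -1.50 ± 0.11 [-1.43], and the mitotic kinase gene Cdk1 by -1.51 ± 0.21 [-1.52]. Cflar, an inhibitor of death receptor signals, rose by 1.47 ± 0.15 [1.63]. Mmp14, a membrane-bound metalloproteinase, rose by 2.23 ± 0.17 [2.31].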
